A study of Mus musculus with 6 samples.

Results

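The genes described here are the nuclear *Nduf* genes of the mouse, most of which code for subunits or assembly factors of respiratory complex I, measured in lung fibroblasts (LFB) with and without ATF4. They were taken by symbol: a row of the array table counted if the platform annotation paired it with 1 gene only and that gene's symbol started with Nduf. Of 50 rows that named an *Nduf* gene, 3 named several genes and 1 named a pseudogene ending in -ps, which left 46 genes with 1 row each among 65956 transcript clusters, the units in which the array summarises its probes. The rule itself uses no measured difference. All 46 lay above the level of the median cluster (4.90 on the log2 scale). LFB Δ/Δ came from tamoxifen-treated mice in which a tamoxifen-inducible Cre, CreERT2 expressed from *Rosa26*, had removed the floxed part of *Atf4*, and LFB WT/WT came from mice with intact *Atf4* that also carried the Cre and were treated in the same way. The Cre is active throughout the body, so loss of *Atf4* was not limited to fibroblasts. Lungs of several young adult mice of both sexes were digested together and the cells, kept with hydroxytamoxifen in both groups, were grown to passage 2, and 3 arrays were hybridised per group. The sample titles call the arrays of a group biological replicates. Whether each came from a separate isolation is not given in the sources used here, so the p-values reflect array-to-array spread, which may be technical.

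Complex I takes electrons from NADH to coenzyme Q and pumps protons across the inner mitochondrial membrane. Its matrix arm holds the flavin and the iron-sulfur clusters, its membrane arm holds the proton pumps, and accessory subunits surround the conserved core. The core subunits of the membrane arm are coded in mitochondrial DNA and those of the matrix arm in the nucleus, and dedicated assembly factors join the modules. ATF4 drives the transcriptional part of the integrated stress response, a programme that mitochondrial dysfunction also switches on. Comparing both genotypes asks which transcripts differ once ATF4 is lost.

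*Atf4* itself was 8.67, 8.95 and 8.73 in LFB WT/WT and 7.73, 7.49 and 7.48 in LFB Δ/Δ on the log2 scale, a fall of 2.32-fold (limma adjusted p = 0.000497). Arrays correlated at 0.997 to 0.998 within groups and at 0.988 to 0.993 between them. The groups also differed in markers of other cell types. Of 23 leukocyte markers 19 were higher and 0 lower in LFB Δ/Δ. The mean level of the 23 was 9.27 to 9.61 in LFB WT/WT against 11.4 to 11.8 in LFB Δ/Δ, with *Cd3e*, *Ly6g* and *Ccr2* below the median cluster on every array. The largest rises among them were in *Adgre1* (12.6-fold), *Itgam* (11.9-fold), *Tyrobp* (11.2-fold) and *Csf1r* (9.81-fold). Of 12 mesothelial markers 10 were lower and 1, *Krt19*, was higher (0.95, adjusted p = 0.0245), with means of 7.85 to 8.35 against 5.80 to 6.18, and of 11 fibroblast markers 7 were lower and 1 higher, with means of 14.05 to 14.21 against 12.9 to 13.2. Of 9 endothelial markers 3 were higher (*Emcn* 3.62-fold, *Pecam1* 1.54-fold and *Vwf* 1.51-fold), with means of 5.33 to 5.51 against 5.87 to 6.08, and of 9 epithelial markers 1 was higher (*Cdh1*, 2.17-fold), with means of 4.69 to 4.78 against 4.81 to 4.90. Fewer cells of a type and less RNA per cell cannot be told apart in these bulk samples, and the part of these shifts in the *Nduf* results was not tested.

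Of the *Nduf* genes 13 rose slightly in LFB Δ/Δ, 1 fell strongly and 32 passed in neither direction. At an adjusted p of at most 0.05 over all clusters, 13 of the 46 rose (28.3%) and 1 fell (2.17%), whereas over all clusters 6.41% rose and 6.54% fell. Genes with a single name and a level above the median cluster, which are the closer background for genes this bright, rose in 17.5% and fell in 11.6% of cases. The rises were small: with a fold change above 1.5 also required, 0 *Nduf* genes rose and 1 fell (*Ndufa4l2*), against 2.28% higher and 2.57% lower over all clusters. The log2 change was positive for 36 of the 46 genes (78.3%, beside 57.2% of the bright named genes and 49.6% of all clusters), and its median was 0.17 beside 0.04 for the bright named genes. The 3 arrays of LFB Δ/Δ all lay above those of LFB WT/WT for 22 genes and below them for 4, where the bright named genes gave 30.5% in the higher direction and 20.6% in the lower, and all clusters gave 15.0% and 15.0%. The count of rises was 7 without LFB WT/WT replicate 2, 7 without LFB WT/WT replicate 3 and 8 without LFB Δ/Δ replicate 1. The share of all clusters that rose went down too, to 4.23%, 4.01% and 5.21% in that order. For 41 of the 46 *Nduf* genes the 95% confidence interval of the change stayed within 1.5-fold in either direction.

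The size of the general rise depended on the reference. With each array centred on the genes of complexes II to V, by the median of their deviations, 5 of the 46 *Nduf* genes were higher and 3 lower and the median change was 0.06. That centring was chosen after seeing the data. It called 11.7% of the bright named genes higher and 18.7% lower (4.11% and 12.8% of all clusters). The count of rises was near this background and the count of falls was under it. The centring takes the same amount from every gene of an array, so it cannot change the distance between the *Nduf* genes and other genes. The median change over all clusters moved as well, from -0.001 to -0.11. Of all called clusters 24.4% were then higher, compared with 49.5% on the deposited scale, as the calls in the lower direction went from 4313 to 8412. The genes that then rose were *Ndufb4b*, *Ndufb4c*, *Ndufaf4*, *Ndufb6* and *Ndufa8*, and those that fell were *Ndufa4l2*, *Ndufv3* (log2 change -0.25) and *Ndufaf7* (-0.205).

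**Figure D1:**
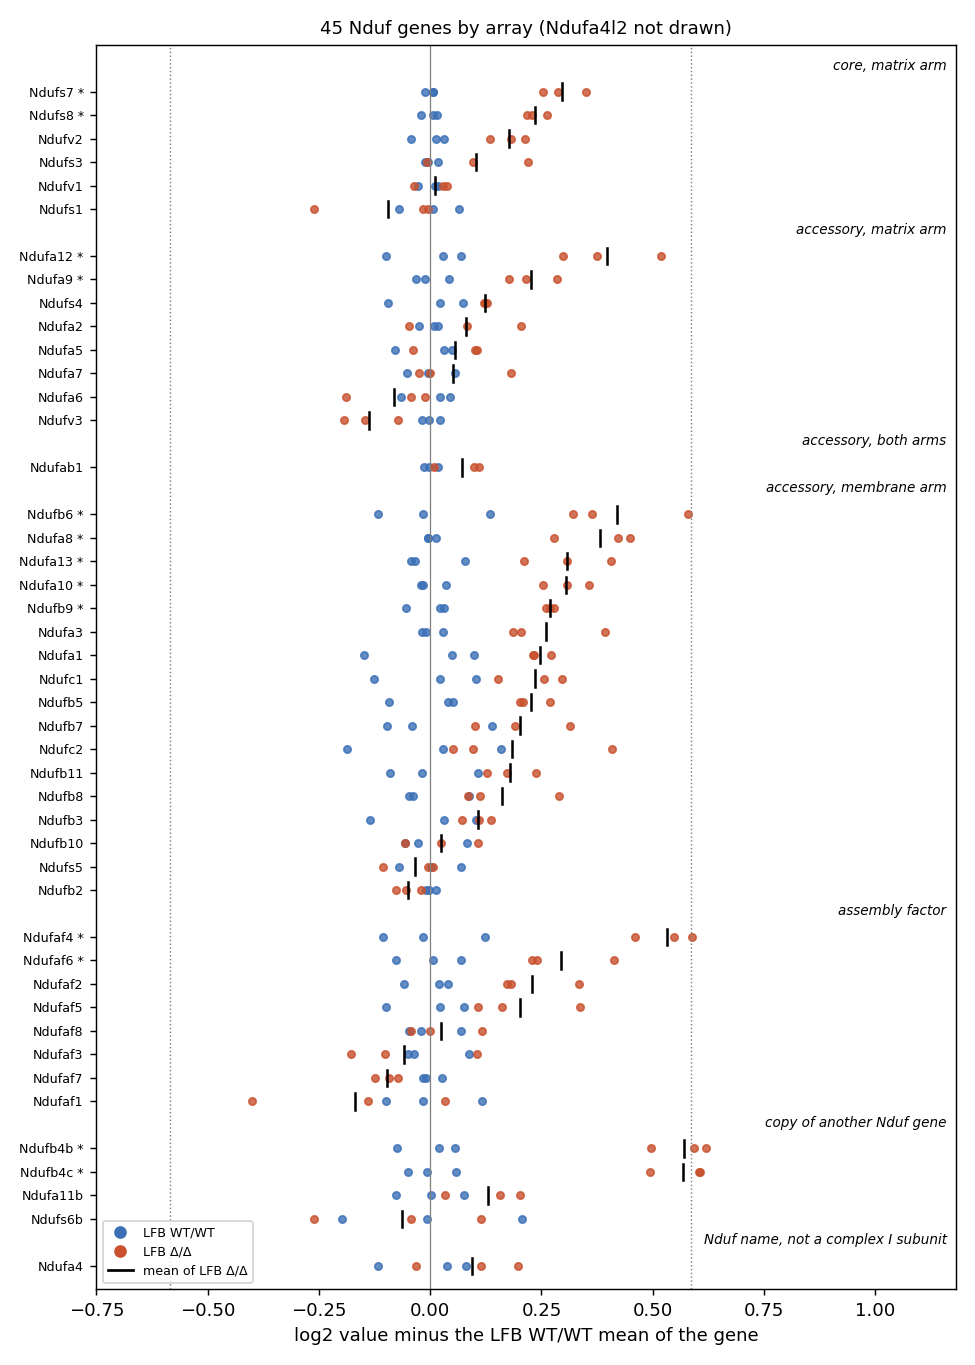
Each row is 1 gene and each point 1 array, plotted as its log2 value minus the LFB WT/WT mean of that gene, with the LFB Δ/Δ mean as a black bar. Asterisks mark the 13 genes past an adjusted p of 0.05, dotted lines mark 1.5-fold, and *Ndufa4l2*, which fell by 2.001, is not drawn.

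The matrix arm core carries the flavin and iron-sulfur clusters, and 6 of its nuclear subunits were analysed here. *Ndufs7*, which holds the last cluster before coenzyme Q, was 9.70, 9.70 and 9.68 in LFB WT/WT and 9.98, 10.04 and 9.94 in LFB Δ/Δ (log2 change 0.30 ± 0.05 s.e., adjusted p = 0.011). *Ndufs8*, which holds a pair of clusters on the same path, was 12.03, 11.999 and 12.03 against 12.25, 12.24 and 12.28 (0.24 ± 0.05, adjusted p = 0.0218). In both genes every LFB Δ/Δ array lay above every LFB WT/WT array. The call of *Ndufs8* was lost when any 1 array other than LFB Δ/Δ replicate 2 was left out (adjusted p = 0.0509 to 0.0834). *Ndufv2* of the NADH-binding module was also apart, at 10.06, 10.08 and 10.0002 against 10.18, 10.23 and 10.26, but did not pass (0.18 ± 0.05, adjusted p = 0.0811). *Ndufv1*, its flavin-binding partner, was 8.64, 8.60 and 8.64 against 8.66, 8.66 and 8.59 (0.01 ± 0.05, adjusted p = 0.942). *Ndufs1*, which carries further clusters, was 10.54, 10.48 and 10.40 against 10.47, 10.21 and 10.46 (-0.09 ± 0.08, adjusted p = 0.582). These last 2 genes overlapped between groups, as did *Ndufs3*, at 9.48, 9.48 and 9.51 against 9.71, 9.59 and 9.48 (0.10 ± 0.07, adjusted p = 0.438).

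Of 8 accessory subunits of the matrix arm 2 rose, with a median change of 0.07. *Ndufa12* was 9.66, 9.70 and 9.53 in LFB WT/WT and 10.001, 10.15 and 9.93 in LFB Δ/Δ (0.40 ± 0.08, adjusted p = 0.0159). *Ndufa9*, which lies near the junction of the arms, changed by 0.23 ± 0.06 (adjusted p = 0.0401). *Ndufa12* lost its call without LFB WT/WT replicate 3 (adjusted p = 0.0582), and *Ndufa9* lost it whichever array was left out (adjusted p = 0.0542 to 0.133). The other 6 ranged from -0.14 for *Ndufv3* to 0.12 for *Ndufs4* and did not pass. *Ndufab1*, the mitochondrial acyl carrier protein found in both arms, had a change of 0.07 ± 0.05 (adjusted p = 0.503).

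The 17 accessory subunits of the membrane arm had the highest median of the subunit groups, 0.23, with 15 positive changes and 5 rises. Their share of rises, 29.4%, was close to the 28.3% of all *Nduf* genes. It was 33.3% in the matrix arm core and 17.5% among the bright named genes. *Ndufb6* was 11.53, 11.38 and 11.28 in LFB WT/WT and 11.76, 11.71 and 11.97 in LFB Δ/Δ (0.42 ± 0.09, adjusted p = 0.0262). *Ndufa8* was 11.58, 11.56 and 11.56 against 11.99, 11.84 and 12.01 (0.38 ± 0.06, adjusted p = 0.00751). In neither gene did the groups overlap, and the LFB WT/WT values of *Ndufa8* were the tightest of the membrane arm (SD 0.01). *Ndufa13*, *Ndufa10* and *Ndufb9* rose by 0.31, 0.31 and 0.27. *Ndufb6* lost its call without LFB WT/WT replicate 2 or 3 or LFB Δ/Δ replicate 1 or 3 (adjusted p = 0.0533 to 0.0898), *Ndufa13* without LFB WT/WT replicate 2 or 3 or LFB Δ/Δ replicate 1 or 2 (adjusted p = 0.0678 to 0.104), and *Ndufb9* without LFB WT/WT replicate 2 (adjusted p = 0.065). Just outside the threshold stood *Ndufa3* (0.26, adjusted p = 0.0514) and *Ndufb5* (0.23, adjusted p = 0.054), and the lowest value was -0.05 for *Ndufb2*. Over all 32 complex I subunits with a row of their own, 9 rose, 0 fell and 27 had a positive change, with a median of 0.18.

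Of 8 *Ndufaf* assembly factors 2 rose. *Ndufaf4*, which acts in early assembly of the matrix arm, was 7.86, 8.001 and 7.77 in LFB WT/WT and 8.34, 8.47 and 8.43 in LFB Δ/Δ (0.53 ± 0.07, or 1.45-fold, adjusted p = 0.00405). Its groups were clearly apart. *Ndufaf6* rose by 0.29 ± 0.07 (adjusted p = 0.0392), a call that was lost whichever array was left out (adjusted p = 0.0568 to 0.132). The remaining 6 ranged from -0.17 for *Ndufaf1*, a factor of membrane arm assembly, to 0.23 for *Ndufaf2*, and none passed. Of 10 assembly factors with other names 1 rose, *Tmem126a* (0.35 ± 0.07, adjusted p = 0.0143), with a list median of 0.03.

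The 2 largest rises were in copies of another gene. *Ndufb4b* was 12.98, 13.02 and 12.89 in LFB WT/WT and 13.46, 13.58 and 13.55 in LFB Δ/Δ (0.57 ± 0.06, 1.48-fold, adjusted p = 0.00148). *Ndufb4c* was 8.80, 8.74 and 8.69 against 9.24, 9.35 and 9.35 (0.57 ± 0.06, 1.48-fold, adjusted p = 0.0013). The groups were apart in both. The symbols mark them as relatives of *Ndufb4*, a membrane arm subunit whose row named several genes, so it is uncertain which transcript these probes measured, and the same holds for *Ndufa11b* and *Ndufs6b*, which did not pass and which RefSeq classes as pseudogenes. Without these 4 copies, 11 of 42 genes rose and 1 fell.

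**Figure D2:**
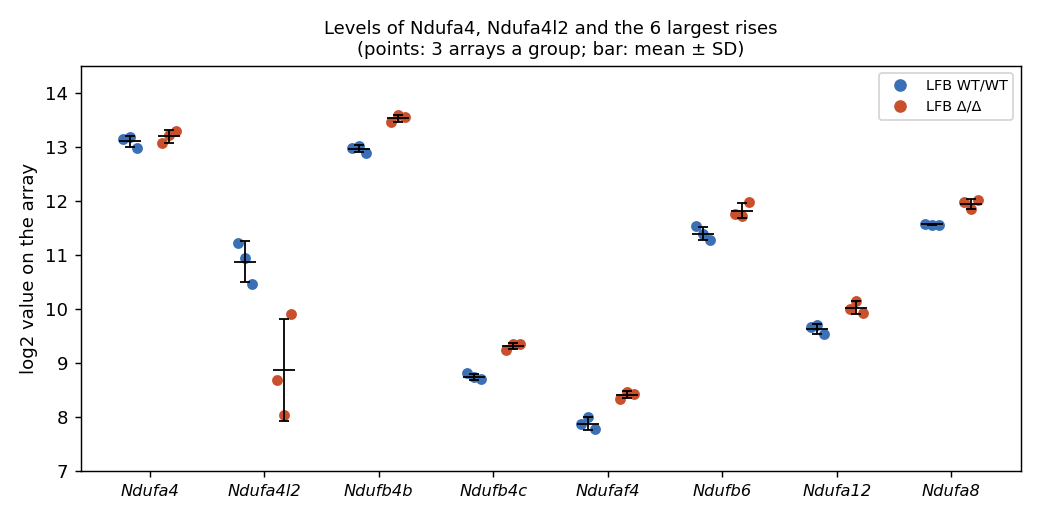
The vertical axis is the log2 value on the array and each point is 1 array, with the mean and SD of the 3 arrays of each group. The 6 largest rises keep the groups apart by small steps, *Ndufa4* overlaps between groups, and *Ndufa4l2* is lower and more scattered in LFB Δ/Δ, from 8.03 to 9.90.

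A pair of genes carry the Nduf name without being subunits of complex I. *Ndufa4* was first assigned to complex I and was later found to belong to complex IV, and *Ndufa4l2*, its relative, is a target of hypoxia-inducible factor that lowers complex I activity. *Ndufa4l2* was 11.22, 10.94 and 10.46 in LFB WT/WT and 8.68, 8.03 and 9.90 in LFB Δ/Δ. Every LFB Δ/Δ array lay below every LFB WT/WT array, but the third LFB Δ/Δ array was far nearer to them. The change was -2.001 ± 0.44, a 4.003-fold fall (adjusted p = 0.0246, 95% interval -3.03 to -0.97). The call was lost without LFB WT/WT replicate 1 (-1.83, adjusted p = 0.0815), without LFB WT/WT replicate 2 (-1.97, adjusted p = 0.084) and without LFB Δ/Δ replicate 1 (-1.91, adjusted p = 0.0766). It was also lost with Student's t-test after adjustment (adjusted p = 0.166). *Ndufa4* was 13.14, 13.18 and 12.98 against 13.07, 13.21 and 13.30, and its groups overlapped (0.09 ± 0.08, adjusted p = 0.582). Of 12 hypoxia targets, 2 fell, *Ndufa4l2* itself and *Vegfa* (-0.32 ± 0.07, adjusted p = 0.0289), and the list median was 0.03. *Ndufa4l2* is also known as a marker of pericytes. Of 12 pericyte markers, a list chosen after seeing the data, 4 fell (*Des*, *Pdgfrb*, *Abcc9* and *Notch3*) and *Anpep* rose. Their mean level was 7.70 to 7.81 in LFB WT/WT and 7.58 to 7.65 in LFB Δ/Δ, *Rgs5*, *Cspg4* and *Higd1b* lay below the median cluster on every array, and their part in the fall of *Ndufa4l2* was not tested.

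The medians of the other respiratory complexes ranged from 0.04 to 0.19 and were all positive, beside 0.04 for the bright named genes. By complex 7.69% to 16% of the genes rose, under the 17.5% of the bright named genes. Between 0% and 7.69% fell, beside 11.6%. In complex II 1 of 8 genes rose (*Sdhb*, 0.35 ± 0.08) and the median was 0.19. In complex III 1 of 13 rose, *Cyc1* for cytochrome c1 (0.65 ± 0.07, adjusted p = 0.00104), and 1 fell, the assembly factor *Ttc19* (-0.57 ± 0.08), with a median of 0.04. In complex IV 4 of 25 rose (*Cox5a*, *Cox8a*, *Surf1* and *Cox6b1*) and *Cox6b2* fell, with a median of 0.09. In complex V 2 of 20 rose (*Atpaf1* and *Atp5pb*), with a median of 0.14. Array by array, the median difference from the LFB WT/WT mean in LFB Δ/Δ replicates 1, 2 and 3 was 0.132, 0.145 and 0.185 for the *Nduf* genes and 0.103, 0.0439 and 0.165 for the 66 genes of complexes II to V. Both sets moved upwards on all 3 arrays, and the counts relative to complexes II to V are those given for the centred arrays.

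**Figure D3:**
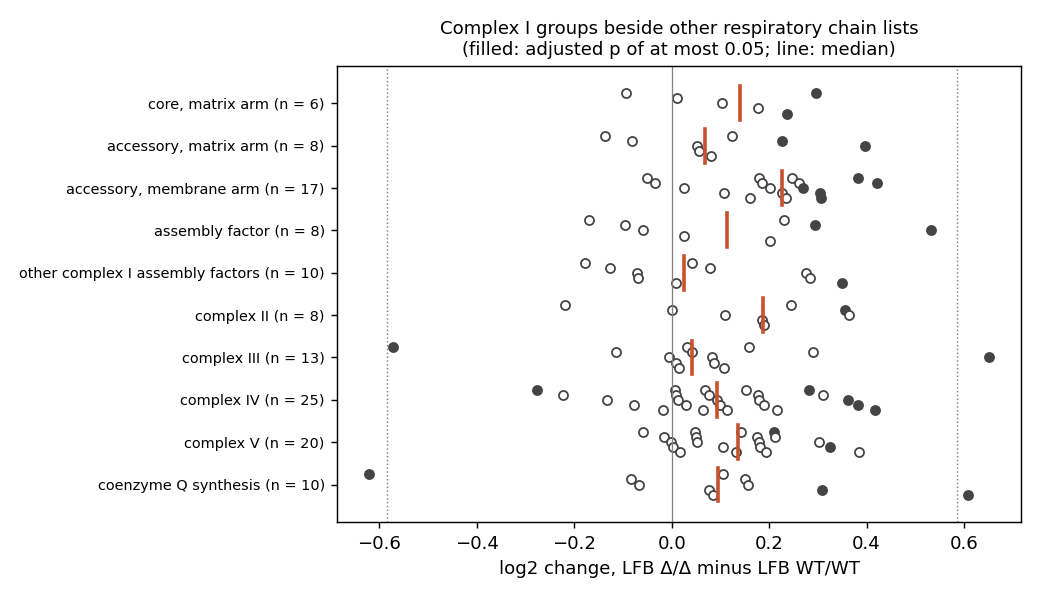
The horizontal axis is the log2 change between LFB Δ/Δ and LFB WT/WT and each point is 1 gene, filled if past an adjusted p of 0.05, with the list median as a line and 1.5-fold as dotted lines. *Ndufa4*, *Ndufa4l2*, *Ndufab1* and the 4 copies, among them the 2 largest rises, are not drawn. The medians of the groups and lists drawn lie between 0.03 and 0.23.

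**Figure D4:**
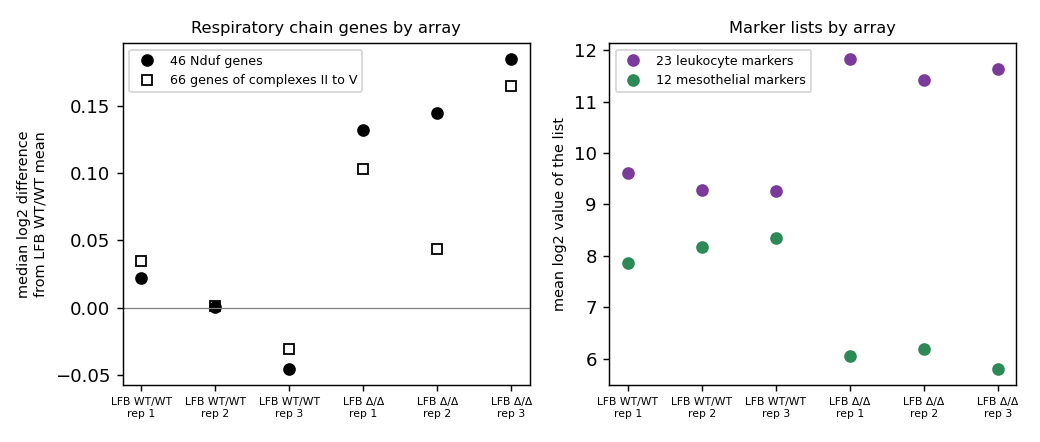
Left, the median log2 difference from the LFB WT/WT mean for the 46 *Nduf* genes and the 66 genes of complexes II to V; right, the mean log2 value of leukocyte and mesothelial markers; each point is 1 array. In LFB Δ/Δ the *Nduf* median reached 0.132 to 0.185 and the leukocyte mean 11.4 to 11.8.

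Among genes that supply or protect the respiratory chain, 0 of 11 regulators of mitochondrial biogenesis passed, and the smallest p-values were those of *Tfam* (0.16 ± 0.06, adjusted p = 0.168) and *Yy1* (0.11 ± 0.06, adjusted p = 0.36). Of 15 mitochondrial chaperones, proteases and stress response genes, 4 rose and 2 fell. The chaperonin pair *Hspe1* and *Hspd1* rose by 0.71 and 0.48, whereas *Atf5* and *Trib3*, which belong to the stress response, fell by 1.31 and 1.03. Of 10 genes for synthesis of coenzyme Q, the electron acceptor of complex I, *Coq5* (0.61) and *Coq2* (0.31) rose and *Coq8b* (-0.62) fell.

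Sequence around the gene start was examined for motifs known from genes of the respiratory chain. Windows of 300 bases around the RefSeq start (GRCm38.p6), 250 before it and 50 after it, were held for 38 of the 46 genes. There were 40 windows in all, and both strands were searched. The NRF1 motif GCATGCGC stood in 4 windows (10% beside 2.71% of all 32851 windows), the ETS motif CCGGAAG in 6 (15% beside 8.86%), the YY1 motif AAGATGGC in 7 (17.5% beside 2.75%), the cAMP response element TGACGTCA in 2 (5% beside 1.79%) and the ATF4 and C/EBP motif TGATGNAA in 0 (beside 3.97%). Every YY1 match reached into the bases after the start, and none lay wholly before it. Of the 10 risen genes with a window, 2 had the NRF1 motif, 2 the ETS, 2 the YY1 and 1 the cAMP response element. Over all 38 genes these numbers were 4, 6, 7 and 2. Genes that did not rise and had a match include *Ndufa6* (NRF1), *Ndufb2* (cAMP response element) and *Ndufaf1* (ETS). The windows of bright named genes were not counted apart, so the shares do not show whether the motifs are particular to the *Nduf* genes. A match describes the letters only and is no evidence of binding. The 250 bases before the start are shown for 4 of the genes that rose, with the match in capitals: NRF1 in *Ndufaf4* (chr4:24897833-24898082, plus strand, where matches on both strands overlap) and *Ndufa8* (chr2:36049339-36049588, minus strand), the cAMP response element in *Ndufa10* (chr1:92473759-92474008, minus strand) and the ETS motif, on the opposite strand, in *Ndufb6* (chr4:40279422-40279671, minus strand).
Ndufaf4: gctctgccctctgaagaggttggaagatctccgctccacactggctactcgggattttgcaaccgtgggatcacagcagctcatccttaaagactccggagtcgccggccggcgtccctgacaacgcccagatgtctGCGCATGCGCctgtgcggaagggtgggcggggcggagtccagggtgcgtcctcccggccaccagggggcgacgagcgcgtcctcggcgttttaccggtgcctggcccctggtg
Ndufa8: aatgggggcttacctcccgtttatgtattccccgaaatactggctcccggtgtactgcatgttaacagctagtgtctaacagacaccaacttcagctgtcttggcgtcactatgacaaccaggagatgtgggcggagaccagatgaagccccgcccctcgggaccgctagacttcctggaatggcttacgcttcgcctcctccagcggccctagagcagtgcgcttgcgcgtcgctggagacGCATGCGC
Ndufa10: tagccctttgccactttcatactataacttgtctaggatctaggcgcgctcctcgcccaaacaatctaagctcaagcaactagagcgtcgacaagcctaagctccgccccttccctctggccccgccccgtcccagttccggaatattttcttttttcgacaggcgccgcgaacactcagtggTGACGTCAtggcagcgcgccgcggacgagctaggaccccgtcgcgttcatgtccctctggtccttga
Ndufb6: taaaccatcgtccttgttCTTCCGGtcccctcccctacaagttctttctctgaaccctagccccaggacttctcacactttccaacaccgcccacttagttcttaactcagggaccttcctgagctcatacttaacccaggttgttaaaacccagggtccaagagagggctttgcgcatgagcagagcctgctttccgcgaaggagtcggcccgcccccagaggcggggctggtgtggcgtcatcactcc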

How the data were processed

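Total RNA of 6 samples was amplified and labelled with biotin, and each sample was run on its own Clariom D mouse array. The authors deposited log2 values made by RMA (background correction, quantile normalisation and a summary per transcript cluster). Which annotation version they used is not given in the sources used here. Because quantile normalisation forces like distributions, a change in total RNA cannot be seen. Separately, levels of different genes cannot be compared directly on such arrays, so a level above the median cluster is only a rough guide. The number of arrays limits the precision.

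A linear model with a genotype term alone was fitted to every cluster (limma 3.58.1, functions lmFit and eBayes, under R 4.3.3), and Benjamini-Hochberg adjustment ran over the 65956 clusters. The study's thresholds were an adjusted p of 0.05 and a fold of 1.5. Genes were named from the platform annotation: 30638 rows had 1 symbol, 2176 several and 33142 none. The scripts were tested on simulated data.

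Members, gene lists and motifs were chosen with earlier results of these data known. Values by array are given for members past both thresholds, the 6 largest rises, the nuclear core subunits, *Ndufa4* and *Ndufa4l2*. Of other lists up to 4 passing members are named, or the 2 with the smallest p. The pericyte list, the count without copies and the centring on median deviations were chosen after seeing the data. Alternatives covered scaling, the test, filters, array weights and leaving out each array.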

Additional observations from a re-analysis of the deposited data

How the results depend on the processing

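The count of *Nduf* genes that rose at an adjusted p of 0.05, 13 with all arrays, was 7 to 10 when each array was left out in turn. Over all clusters the share that rose was then 4.01% to 5.71%, beside 6.41% with all arrays. The count of *Nduf* genes that fell, and that fell past 1.5-fold, was 0 to 1, and 0 to 2 rose past 1.5-fold. The median change was 0.14 to 0.19. The replicate numbers did not pair the samples (correlations of deviations -0.0417, -0.0084 and -0.222). With a replicate block 8 genes rose, 0 of them past 1.5-fold, and 0 fell, while 4.62% of all clusters rose. Student's t-test gave 8 and 0 after Benjamini-Hochberg adjustment, while 2.57% of all clusters rose. An intensity trend in the prior gave 9 rises (5.69% of all clusters) and array weights gave 14 (6.45%). The filter on dim clusters gave 15, while 13.1% of the clusters kept rose. A test against 1.5-fold called 0 lower. Centring on bright clusters gave a median of 0.22 and 16 rises, 2 of them past 1.5-fold, while 7.98% of all clusters rose.

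Centring on the median level of complexes II to V, as planned, gave 6 rises, 2 of them past 1.5-fold, while 4.91% of all clusters rose. Its p-values are not comparable with the others: the median level of these 66 genes differed between arrays by -0.123 to 0.096, removing it spread that variation over all clusters, the prior degrees of freedom of limma went from 3.3 to 34.1, and the SD used for *Ndufa4l2* was 0.256 in place of 0.538. Centring on the median deviation, added for this reason after seeing the data, kept 3.99 prior degrees of freedom and gave 5 rises, 3 falls and a median of 0.0597, with all clusters shifted by -0.11. It turned *Ndufs3* (-0.0061), *Ndufa4* (-0.016) and *Ndufv1* (-0.099) negative. With each array left out in turn *Ndufv1* ranged from -0.0043 (without LFB WT/WT replicate 2) to 0.0329, and was also negative without LFB Δ/Δ replicate 1 (-0.0036). Of the 14 genes that passed, *Ndufa8*, *Ndufaf4*, *Ndufb4b* and *Ndufb4c* passed in all 16 alternatives run for single genes, while *Ndufa9* and *Ndufaf6* each lost the call in 11, *Ndufs8* in 9, *Ndufa13* in 8, *Ndufb6* in 6, *Ndufb9* in 4, *Ndufa12* in 3, and *Ndufa10* and *Ndufs7* in 2. *Ndufa4l2* lost it in 5, among them the replicate block (adjusted p = 0.0559), with changes from -2.51 to -1.58. The 16 include the mean over rows of a gene and updated gene symbols. Both repeated the main fit and so could not change the call of a gene. They also include the centring on the median level, whose p-values are not comparable.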
